A study of Saccharomyces cerevisiae with 24 samples.

Results

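RNA from unstressed budding yeast was extracted with 2 commercial kits, RNeasy and Direct-zol, and the 8 poly(A) RNA-seq libraries made from it, 4 per kit, are compared here out of 24 libraries in the series. All cells were Saccharomyces cerevisiae BY4741, a haploid MATa laboratory strain of the S288c background that carries his3Δ1, leu2Δ0, met15Δ0 and ura3Δ0, grown in synthetic complete medium at 30 °C to mid-exponential phase. Each of 4 biological replicates was split into samples for the kits, so that replicate 1 of RNeasy and replicate 1 of Direct-zol came from the same cells. The other libraries of the series came from the same replicates after 20 min at 37 °C, or from a hot-phenol extraction that was cleaned on an RNeasy column (called Phenol). Of 6685 transcripts in the table, 6137 averaged at least 1 TPM, a length-corrected share of the library, in at least 1 of the 6 sample types and were tested.

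The kits separate RNA from the rest of the cell by different chemistry. In the RNeasy protocol cells are broken with beads in a guanidine buffer and the lysate is passed over a silica membrane, which holds RNA in the presence of ethanol. In the Direct-zol protocol cells are broken with beads in an acidic mixture of phenol and guanidine, and the whole mixture is bound to a column without separating its phases. Both protocols digest DNA on the column. Both libraries of a pair describe the same cells, and TPM give each transcript's share of its library, so the comparison asks which transcripts take a different share with each kit and says nothing of the amount that the cells held.

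The labelled strain was checked against its markers. LEU2, URA3 and MET17 (MET15), which are deleted in BY4741, were listed at 0 TPM in all 8 libraries. HIS3, of which the his3Δ1 allele removes only an internal part, lay between 89.3 and 112 TPM with RNeasy, against between 103 and 110 TPM with Direct-zol. The MATa genes STE2, the α-factor receptor, and BAR1, the α-factor protease, lay between 612 and 694 TPM and between 260 and 280 TPM with RNeasy, against between 524 and 618 TPM and between 242 and 245 TPM with Direct-zol. The MATα genes MF(ALPHA)1 and STE3 stayed at or below 5.71 TPM with RNeasy and 4.97 TPM with Direct-zol. No marker gene was called between the kits. The libraries resembled each other closely: over the 6137 transcripts, Pearson's r of log2 TPM lay between 0.986 and 0.992 within RNeasy, between 0.987 and 0.992 within Direct-zol and between 0.980 and 0.989 across the kits, and no library stood apart. TPM keeps no read depth and library totals were not used here, so no counting interval is given.

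Of 6137 transcripts, 239 were called at a false discovery rate (FDR) below 0.01 by limma with Benjamini-Hochberg adjustment over all tested, which is 3.89% of them. 180 were higher with RNeasy (2.93%) and 59 were lower with RNeasy (0.961%). Each of the 239 moved the same way in all 4 same-numbered pairs of libraries, the same libraries that gave the calls. The differences were small: the median log2 fold change, RNeasy minus Direct-zol on the log2(scaled TPM + 1) scale, was 0.40 among the transcripts higher with RNeasy, a fold of 1.32, and -0.39 among those lower with RNeasy, a fold of 0.762, beside -0.02 over all tested. Only 9 of the 180 and 2 of the 59 differed by 1 or more on the log2 scale. Values given per library are TPM as deposited, while fold changes are those after scaling. Standard errors come from 1 spread per transcript over all 24 libraries, so they also hold the spread of the Phenol and heat-shocked libraries.

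The split between the directions changed with the scaling and when libraries were left out. TPM as deposited ran higher with RNeasy for most transcripts, with a median log2 fold change of 0.16, which is 0.19 above the scaled values, and the same test on them called 728 higher and 12 lower, 740 in all. Quantile normalization gave 147 higher and 24 lower, against 180 and 59 in the main test. A fit to the 8 kit libraries alone called 461 transcripts, 178 higher and 283 lower, and a separate replicate block within each temperature called 401, 231 higher and 170 lower. Without replicate 1, 2, 3 or 4 the count of calls was 95, 90, 104 or 89, and leaving out 1 library gave between 155 and 185, with 155 without RNeasy replicate 4, 156 without Direct-zol replicate 2 and 158 without Direct-zol replicate 4. The transcripts lower with RNeasy were the less stable: between 5 and 26 were called without a replicate and between 17 and 46 without 1 library.

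The transcripts that differed in each direction had unlike lengths. Those higher with RNeasy had a median open reading frame (ORF) of 4452 bases, those lower with RNeasy 969 bases and those not called 1188 bases. Of the 179 transcripts higher with RNeasy that have an annotated ORF, 159 had an ORF over 3000 bases. None of the 58 lower with RNeasy had one, and the longest of them was 2076 bases. The transcripts higher with RNeasy were also poorer in G and C (median 37.7% of the ORF, against 42.9% in those lower with RNeasy and 39.9% in those not called) and less abundant (median 30.7 TPM, against 142 TPM in those lower with RNeasy and 45.8 TPM in those not called).

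**Figure D1:**
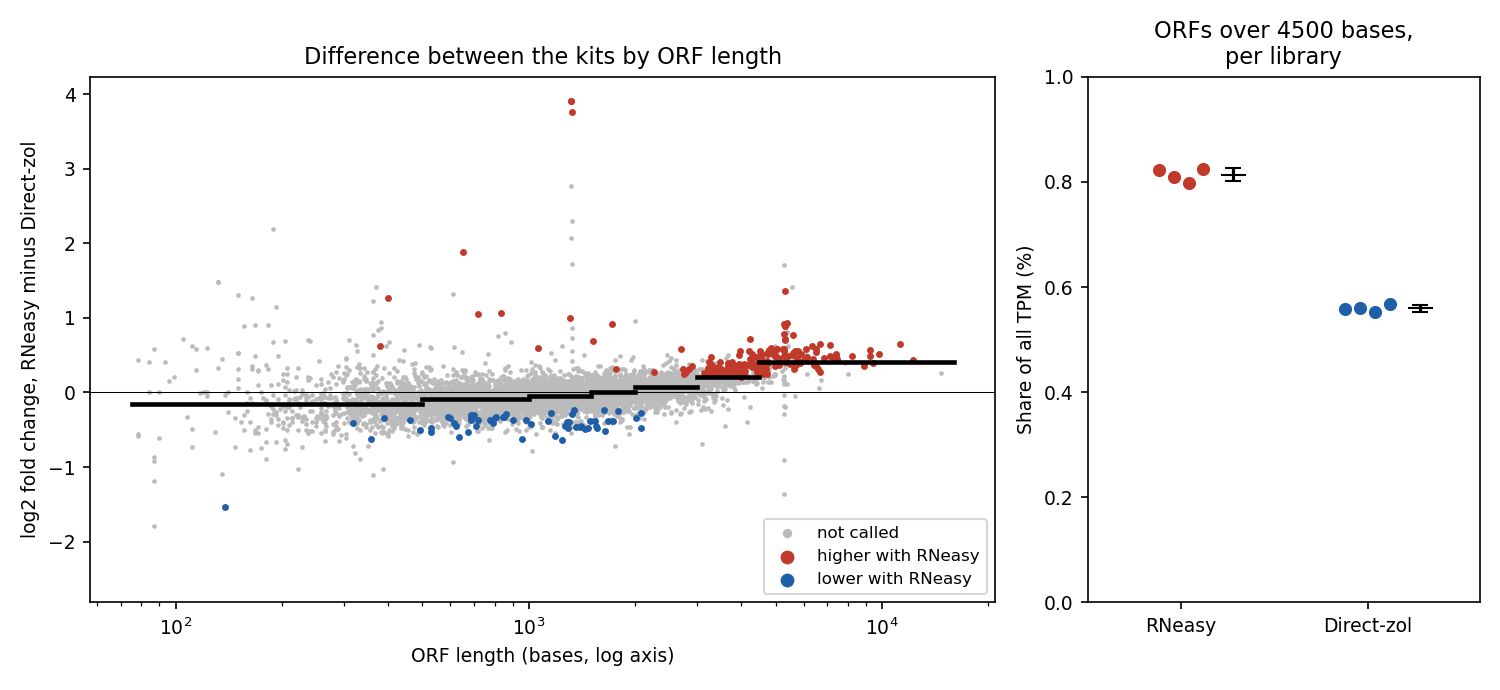
Left: log2 fold change (RNeasy minus Direct-zol) of each tested transcript against the length of its ORF on a log axis, with transcripts called higher in red, called lower in blue and the median of each length range as a black line. Right: share of all TPM in ORFs over 4500 bases in each of the 8 libraries, with the mean and SD; the 4 RNeasy libraries lie between 0.798% and 0.825%, above the 4 Direct-zol libraries at 0.553% to 0.568%.

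Across the 5763 tested transcripts with an ORF, the difference between the kits climbed with each step in length. The median log2 fold change was -0.16 for ORFs of up to 500 bases (838 transcripts), -0.08 for 500 to 1000 bases (1432), -0.04 for 1000 to 1500 bases (1294), 0.00 for 1500 to 2000 bases (894), 0.07 for 2000 to 3000 bases (797), 0.21 for 3000 to 4500 bases (351) and 0.41 for ORFs over 4500 bases (157). The 4 same-numbered pairs gave medians between 0.38 and 0.43 for the longest range and between -0.20 and -0.13 for the shortest, so the spread between pairs was small beside the step between the ranges. In the range over 4500 bases 88 of 157 transcripts were called higher and 0 lower, which is 56.1%, against 2.93% of all tested. In the range from 3000 to 4500 bases 71 of 351 were higher and 0 lower. In the ranges up to 2000 bases, 13 were higher and 55 were lower.

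The calls depend on precision as well as on size, and precision also moved with length: the median standard error was 0.18 for ORFs of up to 500 bases and 0.07 for those over 4500 bases. The medians do not use the standard errors. Across all alternatives tried, the median over 4500 bases stayed between 0.35 and 0.59. It lay between 0.43 and 0.61 above the median of ORFs of up to 500 bases. Changing the replicate block, the variance trend, the FDR limit or which other sample types are fitted cannot move these medians. Only the scalings, pseudocounts, filters and left-out libraries could. Between 52 and 126 of these long ORFs were called higher with 0 called lower. Without ORFs that overlap another gene, belong to a retrotransposon or share a run of 50 bases with another ORF, a restriction chosen after the data were seen, 75 of 113 ORFs over 4500 bases were higher, with a median of 0.40. For the shortest ORFs the sign depends on the scaling: their median was 0.03 with TPM as deposited, beside 0.16 over all transcripts.

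Summed over all transcripts, ORFs over 4500 bases took 0.814 ± 0.012% of the TPM with RNeasy and 0.560 ± 0.006% with Direct-zol (SD, n = 4 each), and the kits did not overlap. The 4 Phenol libraries gave 0.824 ± 0.046%, a range that holds all 4 RNeasy values and none of the Direct-zol values. ORFs over 3000 bases took 3.12 ± 0.05% with RNeasy and 2.39 ± 0.02% with Direct-zol.

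Long ORFs in yeast encode large proteins of many kinds: the motor dynein, kinases of the phosphatidylinositol-kinase-related family, scaffolds of the nuclear pore, enzymes with several active sites and regulators of small GTPases. The longest tested ORFs show the pattern; positions are those of the annotated coding region in build R64. REA1 (MDN1), the giant ATPase of ribosome assembly and the longest ORF tested at 14733 bases, had a log2 fold change of 0.26 and was not called. DYN1, the dynein heavy chain (12279 bases at chrXI:535647-547925, minus strand), had 13.5, 13.1, 12.3 and 13.2 TPM in the RNeasy libraries, against 8.5, 8.06, 7.61 and 8.33 TPM in the Direct-zol libraries. DYN1 differed by 0.44 ± 0.06 on the log2 scale (SE; limma, adjusted p = 1.1e-04), with no overlap between the kits. TRA1, a scaffold of the SAGA and NuA4 histone acetyltransferase complexes (11235 bases at chrVIII:302761-313995, plus strand), had 28.3, 24.9, 24.2 and 25.4 TPM in the RNeasy libraries, against 13.9, 13.6, 14.1 and 14.2 TPM in the Direct-zol libraries. Its log2 fold change was 0.65 ± 0.06 (limma, adjusted p = 2.3e-06), a fold of 1.57, and every RNeasy library lay above every Direct-zol library. Of the 37 ORFs over 6000 bases, all 37 had a log2 fold change above 0 and 28 were called higher. The least affected of them was URA2, which makes the first intermediates of pyrimidine synthesis, at 0.06 and 108 TPM.

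Among long ORFs of abundant transcripts the values were mixed. ACC1, the acetyl-CoA carboxylase that begins fatty acid synthesis (6702 bases, 244 TPM on average over the 8 libraries), had a log2 fold change of 0.17. FAS1 and FAS2, the subunits of fatty acid synthase (6156 bases at 304 TPM and 5664 bases at 372 TPM), had 0.24 and -0.05, and none of these genes was called. FAS2 was the only ORF over 4500 bases outside the retrotransposons with a value below 0, among 125. FKS1, the catalytic subunit of glucan synthase (5631 bases, 272 TPM), was called higher, at 0.32. PDR5, the multidrug exporter (4536 bases), had 459, 390.5, 369 and 419 TPM in the RNeasy libraries, against 310.2, 268, 241 and 302 TPM in the Direct-zol libraries. PDR5 was called higher at 0.35 ± 0.07 (limma, adjusted p = 0.0035), but the call was lost in 9 of the 12 runs that left out a library or a replicate, with an adjusted p of up to 0.043 without replicate 3.

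By abundance, the difference between the kits fell toward the most abundant transcripts with TMM scaling and with TPM as deposited, but not after quantile normalization. TMM, the trimmed mean of log ratios used throughout, divides each library by 1 factor. With it the median log2 fold change was -0.03 at up to 5 TPM, 0.04 at 5 to 20 TPM, 0.03 at 20 to 50 TPM, -0.02 at 50 to 100 TPM, -0.08 at 100 to 500 TPM and -0.28 over 500 TPM, where the ranges are of the mean over the 8 libraries. Of the 180 transcripts higher with RNeasy, 98 lay between 20 and 50 TPM (of 1717 tested there), and 0 lay over 500 TPM (of 313). Of the 59 lower with RNeasy, 26 lay between 100 and 500 TPM (of 1244) and 8 over 500 TPM. Ranges set by the 4 Phenol libraries, which took no part in the contrast, gave medians of -0.28 over 500 TPM and -0.09 at 100 to 500 TPM. With TPM as deposited the medians of the 6 ranges were 0.07, 0.23, 0.23, 0.18, 0.12 and -0.08, so that only the most abundant range lay below 0. Quantile normalization gives every library the same distribution of values, and so takes out differences that run with abundance. With it the 6 medians were -0.02, -0.01, -0.01, 5.9e-04, 0.003 and -0.002, while that of ORFs over 4500 bases was 0.36 and that of ORFs of up to 500 bases -0.06.

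Abundance and length are themselves related, since the median ORF was 570 bases over 500 TPM and 1478 bases at 20 to 50 TPM. Within ORFs over 3000 bases the median with TMM scaling also fell with abundance, being 0.38 at up to 5 TPM, 0.32 at 5 to 20 TPM, 0.28 at 20 to 50 TPM, 0.23 at 50 to 100 TPM and 0.13 at 100 to 500 TPM (21, 96, 231, 108 and 51 transcripts). Within ORFs of up to 1000 bases it lay between -0.11 and -0.05 in the ranges up to 500 TPM and at -0.30 over 500 TPM. After quantile normalization the medians of ORFs over 3000 bases were 0.35, 0.22, 0.23, 0.24 and 0.18, with no fall between 5 and 100 TPM, and that of ORFs of up to 1000 bases was -0.007 over 500 TPM. Spearman's correlation coefficient with the log2 fold change, over the 5763 transcripts of the same libraries, was 0.46 for ORF length and -0.31 for mean TPM; it was -0.13 between length and TPM. After quantile normalization it was 0.38 for length and 0.001 for mean TPM. These transcripts are not independent replicates, and the coefficients are given as a description.

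**Figure D2:**
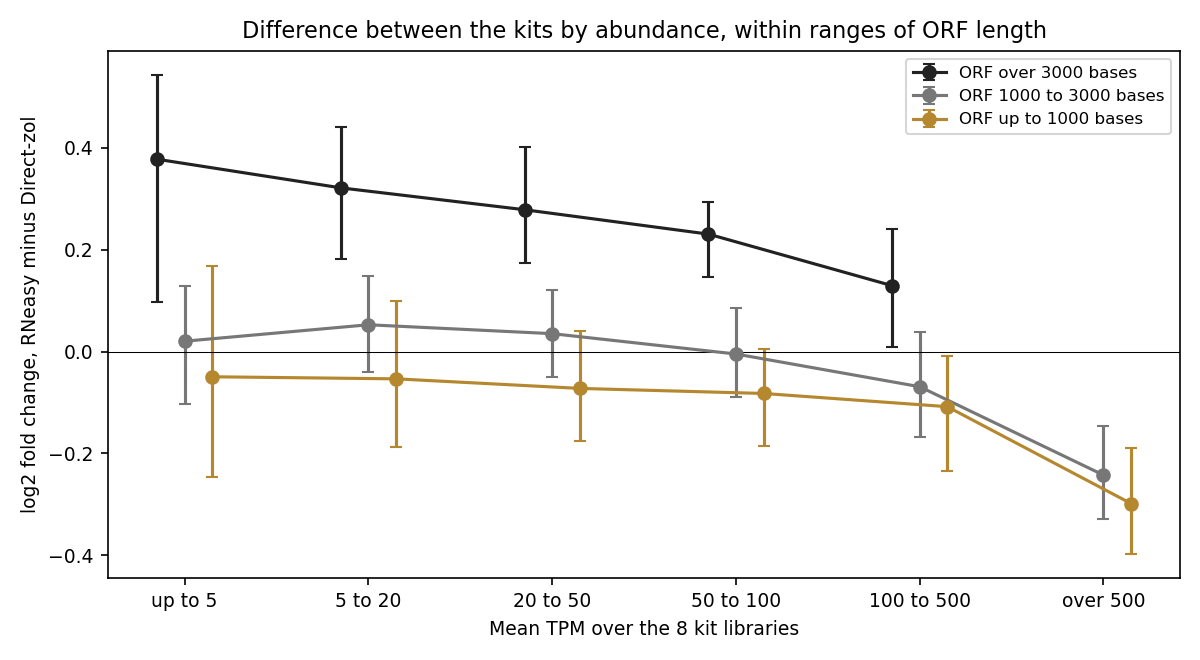
Median log2 fold change (RNeasy minus Direct-zol; bars span the 25th to the 75th percentile) by mean TPM over the 8 kit libraries, for ORFs over 3000 bases (black), of 1000 to 3000 bases (grey) and of up to 1000 bases (gold); only sets of 20 or more transcripts are drawn. The black line lies above both others in every range it covers and falls to 0.13 at 100 to 500 TPM with the TMM scaling drawn here.

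None of the 10 most abundant transcripts was called in the fit to all 24 libraries, although all 10 lay below 0, between -0.54 and -0.20. After quantile normalization 6 of the 10 lay below 0, between -0.17 and 0.13 over the 10. ENO2, the main enolase of fermenting cells, was the nearest to a call. It had 6024, 6585, 6250 and 5436 TPM in the RNeasy libraries, against 7357, 8228, 7103 and 8122 TPM in the Direct-zol libraries. Its log2 fold change was -0.54 ± 0.15 (limma, adjusted p = 0.027), and its kits did not overlap. ENO2 shares some of its sequence with ENO1, so its reads may be split with that copy. TDH3, the main glyceraldehyde-3-phosphate dehydrogenase, had 15549, 16714, 15313 and 13222 TPM in the RNeasy libraries, against 17737, 19110, 17332 and 18657 TPM in the Direct-zol libraries, which gave -0.47 ± 0.20 (limma, adjusted p = 0.15).

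The base composition of the ORF moved with the difference as well. With the ORFs ordered into 5 equal groups from the poorest in G and C (up to 37.4%) to the richest (over 43.0%), the median differences on the log2 scale were 0.11, 0.04, -0.03, -0.08 and -0.14, and 75, 76, 17, 9 and 2 transcripts were higher while 2, 2, 6, 20 and 28 were lower. Spearman's coefficient was -0.45 with the G and C content over 5763 transcripts, and the content was itself related to length (-0.24). Within ORFs over 3000 bases the medians were 0.35 in the poorest group and 0.19 in the richest (176 and 29 transcripts). Within ORFs of 500 to 1500 bases they were 0.04 and -0.15 (422 and 642 transcripts). With TPM as deposited all 5 medians were above 0, between 0.05 and 0.30, in the same order, and after quantile normalization they were 0.09, 0.03, -0.01, -0.04 and -0.07.

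To show what these contents look like, stretches are printed of MMS1, an ORF poor in G and C, and of CYS3 and BOL3, the richest, among 30 transcripts named by the rule given next, leaving out ORFs with introns, overlaps or shared sequence. Each is the 120-base block, counted from the start codon, whose composition is nearest to that of its whole ORF, read 5′ to 3′ on the coding strand from the RefSeq genome of build R64, with G and C in capitals. The blocks lie at chrXVI:871063-871182 on the plus strand, chrI:131399-131518 on the plus strand and chrI:57146-57265 on the minus strand.
MMS1: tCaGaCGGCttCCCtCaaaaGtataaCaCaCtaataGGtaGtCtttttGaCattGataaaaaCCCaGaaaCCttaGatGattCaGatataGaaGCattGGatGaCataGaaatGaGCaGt
CYS3: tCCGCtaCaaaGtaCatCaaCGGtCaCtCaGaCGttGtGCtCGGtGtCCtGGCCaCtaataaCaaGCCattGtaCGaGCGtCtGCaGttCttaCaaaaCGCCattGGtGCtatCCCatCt
BOL3: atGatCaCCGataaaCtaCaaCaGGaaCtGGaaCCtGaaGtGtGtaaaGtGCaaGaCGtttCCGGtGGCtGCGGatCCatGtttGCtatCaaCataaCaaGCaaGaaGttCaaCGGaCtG
The block of MMS1 holds 43 G or C, and those of CYS3 and BOL3 hold 59 and 54.

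Transcripts were named by rule: 15 at each end of the log2 fold changes of those called, at a mean of 5 TPM or more, leaving out retrotransposon ORFs. The 15 highest were SWC7, YPR202W, YNR066C, MCM10, UBR2, MMS1, NGL3, POL2, TRA1, TAO3, CDC39, YCL021W-A, ULS1, NDJ1 and APC1, with folds between 1.504 and 2.40. In all 15 the 4 RNeasy libraries lay above the 4 Direct-zol libraries in TPM as deposited. Relative to the scaled values, that scale moves the median log2 fold change by 0.19 toward RNeasy. The 15 were also picked for their difference in these libraries, so this is a description and not a test. Of the 15, 10 stayed called in all 12 runs that left out a library or a replicate. 8 of the 15 have an ORF over 4000 bases.

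**Figure D3:**
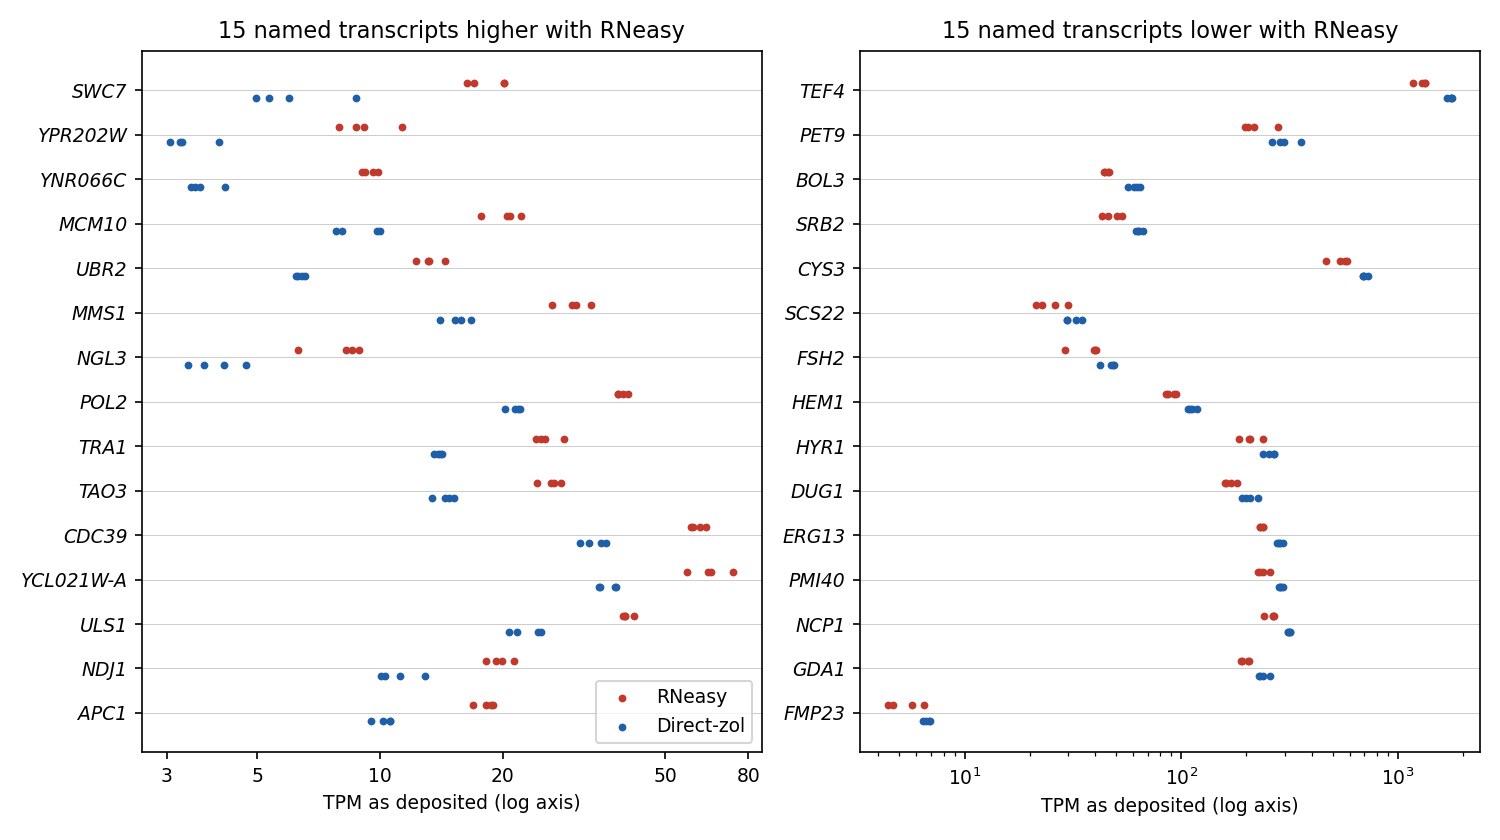
TPM as deposited (log axis) in each library of the 15 named transcripts highest (left) and lowest (right) in RNeasy relative to Direct-zol, with RNeasy in red above Direct-zol in blue. The kits do not overlap for any of the 15 on the left and for 12 of the 15 on the right. These transcripts were picked for their difference in the same libraries, and the unscaled TPM drawn favour RNeasy.

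Among the long named genes, UBR2, a ubiquitin ligase that marks the proteasome regulator Rpn4 (5619 bases at chrXII:187663-193281, minus strand), had 14.4, 13.2, 12.2 and 13.1 TPM in the RNeasy libraries, against 6.21, 6.31, 6.45 and 6.55 TPM in the Direct-zol libraries. UBR2 was 0.77 ± 0.09 higher on the log2 scale (limma, adjusted p = 1.1e-05), and its lowest RNeasy value was well above its highest Direct-zol value. POL2, the catalytic subunit of DNA polymerase ε (6669 bases at chrXIV:148212-154880, plus strand), had 38.4, 40.5, 38.4 and 39.4 TPM in the RNeasy libraries, against 22.1, 20.3, 21.4 and 21.9 TPM in the Direct-zol libraries. POL2 was higher by 0.65 ± 0.07 (limma, adjusted p = 1.1e-05). CDC39 (NOT1), the scaffold of the CCR4-NOT deadenylase (6327 bases at chrIII:280117-286443, plus strand), had 60.8, 57.9, 58.4 and 63.1 TPM in the RNeasy libraries, against 32.5, 30.9, 35.9 and 34.9 TPM in the Direct-zol libraries. CDC39 was higher by 0.63 ± 0.07 (limma, adjusted p = 1.0e-05). MMS1, a subunit of a ubiquitin ligase that acts at stalled replication forks (4224 bases), was higher by 0.71 ± 0.11 (limma, adjusted p = 4.5e-04), and of the 12 runs lost its call in that without replicate 1, at an adjusted p of 0.011. TAO3, a protein of cell polarity, ULS1, a Swi2/Snf2-like ATPase, and APC1, the largest subunit of the anaphase-promoting complex, were higher by 0.63, 0.60 and 0.59.

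The other named genes higher with RNeasy were short. SWC7, a subunit of the SWR1 chromatin-remodelling complex with an ORF of 399 bases (chrXII:892992-893390, minus strand), had 17, 20.2, 16.3 and 20.1 TPM in the RNeasy libraries, against 5.98, 8.73, 4.97 and 5.34 TPM in the Direct-zol libraries. SWC7 was higher by 1.26 ± 0.21 (limma, adjusted p = 5.5e-04), a fold of 2.40 and the largest among the named genes, with an adjusted p of 0.015 without replicate 3. MCM10, a replication initiation factor (1716 bases at chrIX:61013-62728, minus strand), had 20.8, 20.4, 17.7 and 22.1 TPM in the RNeasy libraries, against 10, 9.86, 8.06 and 7.8 TPM in the Direct-zol libraries. MCM10 was higher by 0.92 ± 0.09 (limma, adjusted p = 2.9e-06). YNR066C, which encodes an uncharacterized protein (1311 bases), had 9.9, 9.05, 9.21 and 9.63 TPM in the RNeasy libraries, against 3.63, 4.17, 3.45 and 3.52 TPM in the Direct-zol libraries. YNR066C was higher by 0.99 ± 0.11 (limma, adjusted p = 1.1e-05), and NGL3, a poly(A)-specific exonuclease (1518 bases), by 0.68 ± 0.09 (limma, adjusted p = 1.0e-04). YCL021W-A, of unknown function, and NDJ1, a telomere protein of meiosis, were higher by 0.62 and 0.59. YCL021W-A stayed called in only 4 of the 12 runs and reached an adjusted p of 0.039 without replicate 3, and NDJ1 reached 0.018 without replicate 2. YPR202W shares 92.5% of its 50-base words with other ORFs, so its reads may belong to a copy.

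Short ORFs higher with RNeasy were rare, and most lay next to a long one. Of 4075 tested ORFs of up to 2000 bases with no overlap and no shared sequence, 8 were called higher (0.196%). 6 of these 8, SWC7, RRG8, YNR066C, MCM10, NGL3 and YCL021W-A, were followed downstream on the same strand by an ORF over 3000 bases, against 163 of the 4075; this feature was looked for after the genes were known. The following ORFs were IKI3 (4050 bases, 91 bases away, log2 fold change 0.29), HOB2 (7470 bases, 543 away, 0.45), YNR065C (3351 bases, 24 away, 0.33), ESL1 (3357 bases, 318 away, 0.29), NAB6 (3405 bases, 391 away, 0.25) and the retrotransposon ORF YCL019W (5313 bases, 1104 away, 1.36). The other 2 of the 8, NDJ1 and SNU66, had no such neighbour. An ORF over 3000 bases also lay upstream on the same strand of 4 of the 8, against 152 of the 4075. These were RRG8, YNR066C, MCM10 and YCL021W-A, so the feature is not particular to the downstream side. As a set, the 163 ORFs with a long ORF downstream had a median log2 fold change of -0.07, beside -0.06 for all 4075. Of the 163, 3 were called lower. The reads behind these ORFs were not seen here, and whether they come from the ORF or from a transcript shared with its neighbour was not tested.

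The 15 transcripts lowest in RNeasy relative to Direct-zol were TEF4, PET9, BOL3, SRB2, CYS3, SCS22, FSH2, HEM1, HYR1, DUG1, ERG13, PMI40, NCP1, GDA1 and FMP23, with folds between 0.640 and 0.721. Their ORFs ran between 357 and 2076 bases, with a median G and C content of 42.9%, against 37.4% in the 15 highest. All 15 also had a log2 fold change below 0 with TPM as deposited, where 12 of all tested were called lower. On that scale TEF4, SRB2, SCS22, FSH2, ERG13, NCP1, GDA1 and FMP23 were not called. Only BOL3 stayed called in all 12 runs that left out a library or a replicate. Such runs also have fewer libraries to estimate the spread, and what lost the other calls was not tested.

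BOL3, a mitochondrial protein that helps to insert iron-sulfur clusters (357 bases at chrI:57029-57385, minus strand), had 46.3, 44.5, 45.9 and 44.3 TPM in the RNeasy libraries, against 60.7, 64.3, 62.4 and 56.9 TPM in the Direct-zol libraries. BOL3 was lower with RNeasy, at -0.62 ± 0.08 (limma, adjusted p = 3.9e-05), and the kits did not overlap. CYS3, the cystathionine γ-lyase that makes cysteine, had 465, 583, 572 and 538 TPM in the RNeasy libraries, against 689.7, 729, 697 and 692 TPM in the Direct-zol libraries. CYS3 was lower, at -0.59 ± 0.11 (limma, adjusted p = 0.0014), and reached an adjusted p of 0.025 without replicate 4. HEM1, the first enzyme of haem synthesis, had 86.8, 93, 94.3 and 85.2 TPM in the RNeasy libraries, against 108, 113, 109 and 118 TPM in the Direct-zol libraries. HEM1 was lower, at -0.51 ± 0.08 (limma, adjusted p = 4.8e-04), with an adjusted p of 0.015 without replicate 1. PMI40, the mannose-6-phosphate isomerase that feeds protein mannosylation, had 230.0, 256, 238 and 227 TPM in the RNeasy libraries, against 282, 289.6, 285 and 294 TPM in the Direct-zol libraries. PMI40 was lower, at -0.48 ± 0.08 (limma, adjusted p = 4.8e-04), with an adjusted p of 0.013 without replicate 1.

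PET9, the main ADP/ATP carrier of the mitochondrial inner membrane, had 198, 280.4, 217 and 203 TPM in the RNeasy libraries, against 285, 356, 264 and 299.6 TPM in the Direct-zol libraries. The kits overlapped in TPM, with replicate 2 high in both, and PET9 was lower within each of the 4 pairs, at -0.63 ± 0.12 (limma, adjusted p = 0.0017), a call that is lost without replicate 4 at an adjusted p of 0.051. TEF4, the γ subunit of elongation factor eEF1B, had 1175, 1330, 1298 and 1337 TPM in the RNeasy libraries, against 1683, 1768, 1771 and 1757 TPM in the Direct-zol libraries. TEF4 was lower, at -0.64 ± 0.15 (limma, adjusted p = 0.0094), but only 2 of the 12 runs kept the call, and the adjusted p reached 0.099 without replicate 4. This SE pools all 24 libraries. With RNeasy the SD of TEF4 was 75.2 about a mean of 1285 TPM unstressed, and 53.9 about 220 TPM after heat shock. With Direct-zol the SD was 41.4 about 1745 TPM unstressed, and 73.7 about 291 TPM after heat shock. The TEF4 gene holds a small RNA gene over 95 bases. SRB2, a Mediator subunit, was lower, at -0.60 ± 0.14 (limma, adjusted p = 0.0094), and kept its call in 0 of the 12 runs, with an adjusted p of up to 0.048 without RNeasy replicate 4 and 0.097 without replicate 4. HYR1, a thiol peroxidase that senses hydrogen peroxide, and DUG1, a dipeptidase of glutathione breakdown, were lower, at -0.50 and -0.49, with an adjusted p of up to 0.021 without replicate 1 and 0.020 without replicate 4. ERG13, of the mevalonate pathway, and NCP1, the reductase that serves ergosterol synthesis, lay at -0.48 each, and lost their calls at an adjusted p of up to 0.070 and 0.061 without replicate 4.

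Function was examined in 31 gene lists, which were chosen with earlier results of these data known. Beside the counts below, 2.93% of all tested were higher and 0.961% lower. Of the 508 tested ORFs over 3000 bases, 159 were higher and 0 lower. Of 67 list members higher with RNeasy, 64 had an ORF over 3000 bases. The exceptions were MCM10, ORC1, the largest subunit of the origin recognition complex (2745 bases, 0.25), and BRN1, a condensin subunit (2265 bases, 0.28). The 24 list members lower with RNeasy had ORFs between 318 and 2076 bases. Over the 12 runs that left out a library or a replicate, 21 of the 67 and 0 of the 24 stayed called in all. Only 3 lists had members called in both directions, and Spearman's coefficient between the median log2 fold change of a list and its median ORF length was 0.70 over the 31 lists.

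**Figure D4:**
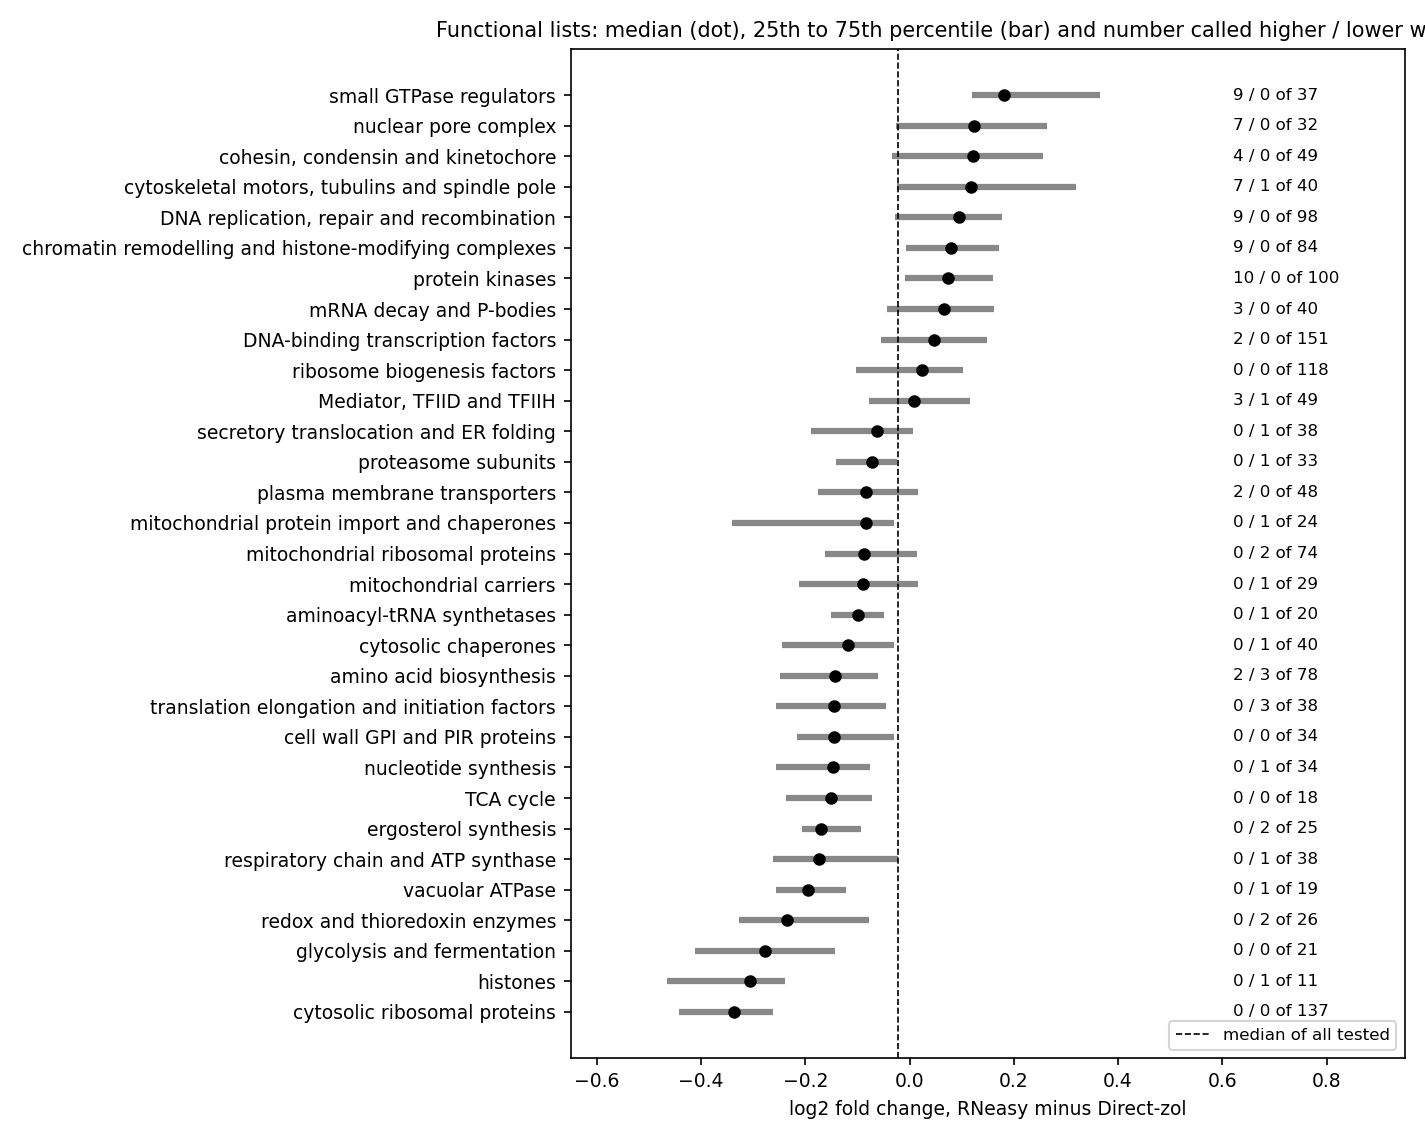
Median log2 fold change (RNeasy minus Direct-zol, dot) and 25th to 75th percentile (bar) of 31 functional lists, with the numbers called higher and lower of those tested at the right and the median of all tested transcripts (-0.02) as a dashed line. Regulators of small GTPases stand at the top (0.18) and cytosolic ribosomal proteins at the bottom (-0.34), where 0 of 137 were called.

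Regulators of small GTPases, the exchange factors and activating proteins that switch these proteins on and off, had the highest median, 0.18, and 9 of 37 were higher with 0 lower. They were IRA1, IRA2, CDC25, BEM2, BEM3, SEC7, ROM2, TUS1 and SYT1, all with ORFs over 3000 bases. BEM2, a protein of bud emergence, had 79.8, 69.2, 69.1 and 71.1 TPM in the RNeasy libraries, against 39.8, 36.6, 45.4 and 44.8 TPM in the Direct-zol libraries. It was higher by 0.59 ± 0.12 (limma, adjusted p = 0.0039), and stayed called in 2 of 12 runs, with an adjusted p of up to 0.045 without replicate 4. IRA2, which turns Ras off, was higher by 0.57 ± 0.12 (limma, adjusted p = 0.0045) and stayed called in 4 of 12 runs, with an adjusted p of up to 0.060 without replicate 2.

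Of 32 nuclear pore genes 7 were higher and 0 lower, with a median of 0.12: NUP192, NUP170 and NUP157 of the inner ring, NUP145, POM152 of the membrane ring and MLP1 and MLP2 of the basket. NUP192 had 43.5, 39.9, 39.8 and 42.2 TPM in the RNeasy libraries, against 25.6, 23.7, 25.4 and 28.1 TPM in the Direct-zol libraries, which made it higher by 0.47 ± 0.08 (limma, adjusted p = 5.5e-04), with an adjusted p of 0.011 without replicate 3. Of 40 genes of cytoskeletal motors, tubulins and the spindle pole 7 were higher and 1 lower. Those higher were the myosins MYO1, MYO2 and MYO4, DYN1, its cortical anchor NUM1, the formin BNI1 and the spindle protein STU1. NUM1 had 49.7, 47.8, 46.9 and 43.7 TPM in the RNeasy libraries, against 28.3, 29.2, 29.1 and 28.5 TPM in the Direct-zol libraries, and was higher by 0.49 ± 0.06 (limma, adjusted p = 5.4e-05). The 1 lower was TUB1, α-tubulin, at -0.23 ± 0.05 (limma, adjusted p = 0.0093), whose kits overlapped in TPM and which kept its call in 0 of 12 runs, with an adjusted p of up to 0.14.

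Protein kinases had 10 of 100 higher and 0 lower (median 0.07). The largest kinases, MEC1 of the DNA damage checkpoint and TOR1 and TOR2 of growth control, were among them. TOR1 had 18.7, 19.8, 18.8 and 18.1 TPM in the RNeasy libraries, against 11, 11.4, 11.5 and 11 TPM in the Direct-zol libraries. TOR2 had 25.5, 25.2, 24.7 and 24.7 TPM in the RNeasy libraries, against 15.8, 15, 15.2 and 14.9 TPM in the Direct-zol libraries. The paralogues were higher by 0.51 ± 0.07 and 0.49 ± 0.05 on the log2 scale (limma, adjusted p = 6.9e-05 and 2.1e-06), and MEC1 by 0.49 ± 0.07, with an adjusted p of 0.016 without replicate 1. GCN2, which senses uncharged tRNA, PKC1 of the cell wall pathway and SSK2 of the osmotic pathway were higher by 0.35, 0.24 and 0.53.

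Genes of chromatin remodelling and histone modification had 9 of 84 higher and 0 lower (median 0.08): the ATPases SNF2, STH1, SWR1 and INO80, with SWI1, SPT7, SIN3, SET1 and TRA1. DNA replication, repair and recombination had 9 of 98 higher and 0 lower (median 0.09), among them POL2, MRC1, TOP2, RAD9 and REV3. Cohesin, condensin and kinetochore genes had 4 of 49 higher and 0 lower, SMC1, SMC2, SMC4 and BRN1. For mRNA decay 3 of 40 were higher, CDC39 and the exosome cofactors SKI2 and SKI3. Only 2 of 151 DNA-binding transcription factors were higher, SWI4 of the G1 programme and ADR1 of non-fermentable carbon use, both with ORFs over 3000 bases. In the list of Mediator, TFIID and TFIIH, SRB8, SSN2 and TAF2 were higher and SRB2 lower, of 49. In the order given, the shares higher were 10.7%, 9.18%, 8.16%, 7.50%, 1.32% and 6.12% of the lists, against 2.93% of all tested. SRB2 made 2.04% of its list lower, against 0.961% of all tested.

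Cytosolic ribosomal protein genes had the lowest median, -0.34. All 137 lay below 0, between -0.72 and -0.04, while 0 were called in either direction. With TPM as deposited the median was -0.14 and 0 were called, after quantile normalization it was -0.05 with 87 of the 137 below 0 and 0 called, and in the fit to the 8 kit libraries alone 71 of the 137 were called lower. Together they took 27.8%, 27.1%, 27.4% and 27.5% of the TPM in the RNeasy libraries, against 30.1%, 29.7%, 30.2% and 30.2% in the Direct-zol libraries, with no overlap between the kits. Many of these genes have a near-identical copy, and reads may be split between the copies. Ribosome biogenesis factors, which are transcribed along with them, had a median of 0.02, with 0 of 118 called.

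Other lists of abundant transcripts also lay below the median of all tested, and they too moved toward 0 after quantile normalization. Not all of them were short. The median ORF was 399 bases for histones, but 1458 for glycolysis and fermentation and 1312.5 for translation factors, against 1188 in transcripts not called. Histones (11 genes) had a median of -0.31, with 1 lower, the linker histone HHO1. Glycolysis and fermentation (21) had -0.28 and 0 called. After quantile normalization the medians of these lists were -0.12 and -0.09, and those of the next 3 were -0.08, -0.07 and 0.02. Redox enzymes (26) had -0.24 with HYR1 and the peroxiredoxin TSA2 lower. The vacuolar ATPase (19) had -0.19 with VMA2 lower, at -0.45 ± 0.08 (limma, adjusted p = 0.0016), and 0.037 without replicate 2. Translation factors (38) had a median of -0.15 with TEF4, EFB1 and PAB1 lower. EFB1, the nucleotide-exchange subunit of eEF1B and the partner of TEF4, had 2205, 2365, 2321 and 2450 TPM in the RNeasy libraries, against 2655, 2822, 2752 and 2909 TPM in the Direct-zol libraries. It was lower, at -0.46 ± 0.08 (limma, adjusted p = 0.0015), with an adjusted p of 0.042 without replicate 4, and its gene holds a small RNA gene over 102 bases. PAB1, the poly(A)-binding protein, had 791, 849, 838 and 836 TPM in the RNeasy libraries, against 932, 963, 926 and 942 TPM in the Direct-zol libraries, and was lower, at -0.38 ± 0.07 (limma, adjusted p = 0.0022); it lost the call without replicate 4, at an adjusted p of 0.045. With TPM as deposited 16 of the 31 list medians changed sign to above 0, while 20 of the 31 lay below the median of all transcripts on either scale.

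Of the metabolic lists, only that of amino acid biosynthesis held calls in both directions, with 2.56% higher and 3.85% lower. Among 78 genes of amino acid biosynthesis, GLT1, the NADH-dependent glutamate synthase (6438 bases), and MET5, of sulfite reduction (4329 bases), were higher, at 0.40 and 0.38. CYS3, LYS20 of lysine synthesis and SHM2, the cytosolic serine hydroxymethyltransferase, were lower, at -0.59, -0.39 and -0.45. Of 48 plasma membrane transporters the exporters PDR5 and YOR1 were higher, with ORFs of 4536 and 4434 bases, and 0 were lower. That is 4.17% higher, near the 2.93% of all tested. Among mitochondrial lists, MRPL17 and MRPS12 were lower of 74 ribosomal proteins of the organelle and PET9 of 29 carriers. TIM13 was lower of 24 genes of protein import and ATP2 of 38 genes of the respiratory chain and ATP synthase. In that order the shares lower were 2.70%, 3.45%, 4.17% and 2.63%, against 0.961% of all tested, and all but the first rest on 1 transcript.

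Groups taken from experimentally supported Gene Ontology (GO) text in the genome annotation gave the same order by length within each function. Of 5378 transcripts with such text 3.20% were higher and 1.08% lower. Nuclear products had 66 higher and 17 lower of 1551, mitochondrial products 46 and 18 of 1210, and plasma membrane products 25 and 1 of 411. The nuclear group includes retrotransposon ORFs, whose values are uncertain. Its lowest and highest log2 fold changes, -2.49 and 1.71, are those of the retrotransposon ORFs YPL257W-B and YJR029W, which were not called. In the 16 groups with at least 10 ORFs over 3000 bases, the median of those long ORFs lay between 0.15 and 0.30 and the median of ORFs of up to 1500 bases between -0.17 and -0.03.

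Calls left out of the named genes numbered 20, of which 14 were ORFs of Ty retrotransposons, 4 averaged under 5 TPM and 2 were not in the annotation. Ty elements are mobile elements whose RNA encodes Gag and, by frameshift, a Gag-Pol fusion, and their copies share most of their sequence, so the reads of 1 copy cannot be separated from those of the others and each value is uncertain. Of 49 retrotransposon ORFs tested 14 were higher and 0 lower with RNeasy, with a median log2 fold change of 0.49. All 14 gag ORFs tested lay above 0 (3 called, median 1.29), and 26 of 33 gag-pol ORFs did (11 called, median 0.43). The gag-pol ORF YMR045C had 85.6, 85.3, 84.8 and 94.8 TPM in the RNeasy libraries, against 46, 45.4, 40.7 and 43.9 TPM in the Direct-zol libraries, and was higher by 0.78 ± 0.07 (limma, adjusted p = 1.6e-06). The 3 largest changes were of gag ORFs. YBL005W-A had 88.5, 85.7, 75.2 and 40.0 TPM in the RNeasy libraries, against 5.64, 10.1, 0.01 and 5.44 TPM in the Direct-zol libraries. YFL002W-B and YGR161W-A, which are identical, had 12.2, 16.9, 14.5 and 14.4 TPM in the RNeasy libraries, against a listed value of 0 in every Direct-zol library, so no fold is given.

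The same 4 replicates after heat shock gave a repeat of the contrast in libraries that the unstressed comparison does not contain. Both are, however, estimated in 1 model with the same standard error per transcript. A transcript of small spread is therefore favoured in both sets of calls, which are not independent. There 272 transcripts were called (4.43%), 226 higher and 46 lower. Of the 180 transcripts higher with RNeasy in unstressed cells, 160 were called higher again after heat shock, where 3.68% of all tested were; of the 59 lower, 26 were called lower again, where 0.75% of all were. All 239 kept their direction. ORFs over 4500 bases had a median of 0.50 after heat shock, with 112 of 157 higher and 0 lower, and those of up to 500 bases -0.14. Over all 6137 transcripts Spearman's coefficient between the log2 fold changes was 0.75. A test of the difference between the contrasts called 0 transcripts by limma, with 69 at an unadjusted p below 0.05. NDJ1 and YCL021W-A, at 0.25 and 0.35 after heat shock, were not called there.

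**Figure D5:**
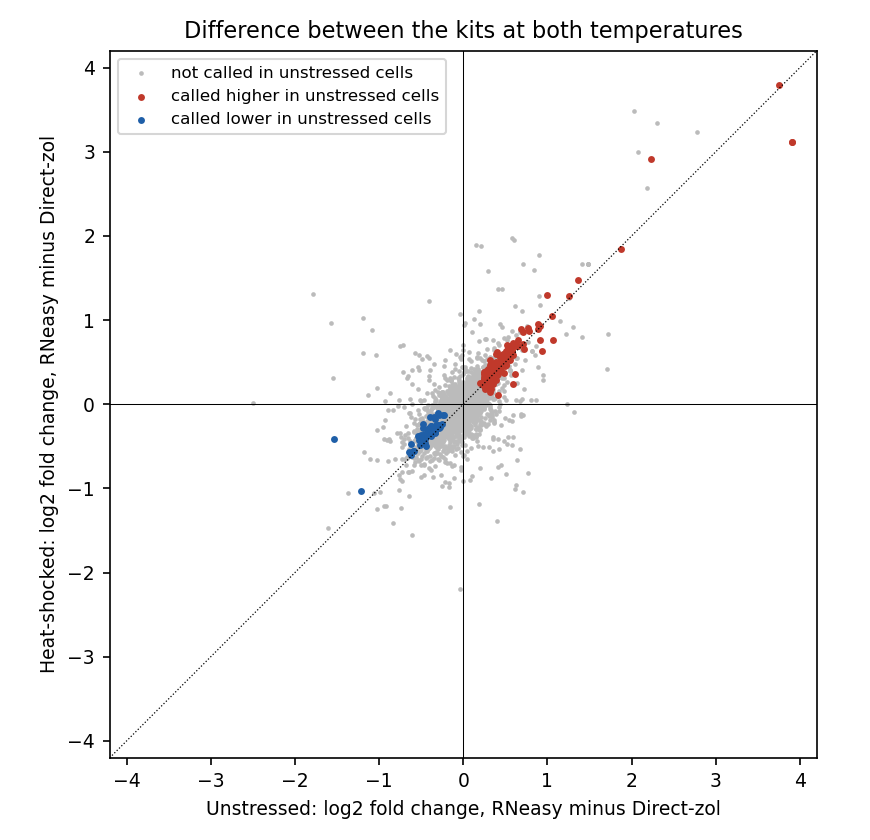
Log2 fold change (RNeasy minus Direct-zol) in heat-shocked cells against that in unstressed cells for the 6137 transcripts, with those called in unstressed cells in red (higher) and blue (lower) and a dotted line of equal values. All 180 red points lie above 0 and all 59 blue points below 0 on both axes.

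Levels in the 4 Phenol libraries, which belong to neither kit, were set beside those of the kits after scaling between libraries. For 109 of the 180 transcripts higher with RNeasy, the mean Phenol level was above that of both kits, for 59 it lay between them and for 12 it was below both. For the 59 transcripts lower with RNeasy, it was above both in 34, between in 18 and below both in 7. As shares, Phenol lay above both kits for 60.6% of those higher, 57.6% of those lower and 40.5% of the 5898 not called, between them for 32.8%, 30.5% and 13.9%, and below both for 6.67%, 11.9% and 45.6%. The kits lie closer together in the transcripts not called, which leaves less room between them, and the difference of these shares was not tested. In TPM as deposited, UBR2 averaged 13.3 TPM with RNeasy, 6.38 TPM with Direct-zol and 11.7 TPM with Phenol. CYS3 averaged 539, 702 and 1021 TPM in the same order of methods. These averages are unscaled and do not give the class of a transcript in the counts above. The scaling factors of the unstressed Phenol libraries were 0.776 to 0.899, below those of RNeasy, so scaling raises Phenol relative to RNeasy.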

How the data were processed

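The values are TPM per transcript, made by the authors from 50-base single-end reads of poly(A)-selected libraries with Trimmomatic, STAR and RSEM on the R64 (sacCer3) genome; a second deposited table held only the authors' own edgeR comparisons and was not used. TPM were scaled by a trimmed mean of log ratios (30% of ratios, 5% of means), and log2(scaled TPM + 1) was fitted with limma 3.58.1 in R 4.3.3 (trended variance) on 6 sample types plus replicate over all 24 libraries; a fold change on this scale understates the change of low transcripts. Transcripts needed a mean of 1 TPM in a sample type; calls were at FDR < 0.01 over all tested, and the code was tested on simulated data. The replicate block follows the design: same-numbered samples came from the same biological replicate. The deviations of same-numbered kit libraries correlated at 0.00, 0.48, 0.05 and 0.27 for replicates 1, 2, 3 and 4. Kit libraries of unlike number correlated at -0.35 to 0.14, a range that holds the values of replicates 1 and 3. RNeasy scaling factors were 1.01 to 1.04 and Direct-zol factors 0.88 to 0.91. Lengths, G and C content and positions came from RefSeq R64; all 1417 list entries but 2 matched. Named transcripts were the 15 highest and 15 lowest called at 5 TPM or more, moving 1 way in all 4 pairs, annotated and not from retrotransposons, with called list members as examples, the 3 largest calls left out by these conditions and marker genes; genes outside this rule were chosen after their values were seen. The comparison and the lists were chosen with earlier results of these data known. Other scalings tried were TPM as deposited, median of ratios and quantile normalization, the last of which removes differences that run with abundance. RNA integrity was not used here. A few items withheld from the text are not reported here.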

Additional observations from a re-analysis of the deposited data

Results flagged for a closer look

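In 7 of 226 groups of 4 libraries examined for the named genes and the called list members, 1 library lay far from the other 3 by Dixon's test at the 95% level; chance flags about 1 group in 20. With RNeasy, FSH2, a putative serine hydrolase, had 29.0 TPM in replicate 4, against 39.7 to 40.6 TPM in the others. NCP1 had 241 TPM in RNeasy replicate 1, against 265 to 269 TPM. STH1, the RSC ATPase, had 99.9 TPM in RNeasy replicate 4, against 90.3 to 91.3 TPM. SIN3, a histone deacetylase subunit, had 86.0 TPM in RNeasy replicate 1, against 92.2 to 93.0 TPM. DNA2, a nuclease and helicase, had 17.6 TPM in RNeasy replicate 1, against 18.6 to 18.8 TPM. BRN1 had 27.5 TPM in RNeasy replicate 2, against 31.3 to 31.8 TPM. With Direct-zol, TEF4 had 1683 TPM in replicate 1, against 1757 to 1771 TPM. No transcript was called for a difference of the kit contrast between temperatures.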

How the results depend on the processing

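The count of calls, 239 (180 higher, 59 lower with RNeasy), stayed within 1.5 times of itself with no replicate block (223), median of ratios (238), pseudocounts of 0.1 and 5 (242 and 237), no filter (232), a minimum of 5 TPM (250), no trend (231), quantile normalization (171, but 24 lower) and the 12 unstressed libraries alone (179, but 35 lower). It moved with a replicate block within temperature (401, 170 lower), with only the 8 kit libraries (461, 283 lower), with TPM as deposited (740: 728 higher, 12 lower) and at FDR < 0.05 (611: 339 higher, 272 lower); the causes were not tested beyond the shift of 0.19 that TPM as deposited bring. Leaving out a replicate or a library gave 89 to 185 calls, 78 to 142 higher and 5 to 46 lower. After heat shock TPM as deposited gave 462 calls, 455 higher and 7 lower, against 272, 226 and 46, and no replicate block gave 251. Of 113 genes followed through 25 alternatives, 29 stayed called in all; 690 of 2825 values lost the call and 0 turned direction. Dropping the replicate block leaves every log2 fold change as it is, so list and GO medians could not move with it. TPM as deposited differ by 1 factor per library, which medians relative to all transcripts largely take out. Of the 104 such medians with either alternative, 103 moved by less than the spread between pairs. Histones moved to -0.27 with TPM as deposited. These counts therefore say little about stability. Abundance ranges set by Phenol moved no median by more than that spread. Scalings of the abundance ranges, and quantile normalization of the lists, were added after the data were seen. With TPM as deposited the medians of the ranges from up to 5 TPM to over 500 TPM moved to 0.074, 0.23, 0.23, 0.18, 0.12 and -0.078. Quantile normalization took the abundance trend away, with medians of -0.012 at 5 to 20 TPM, -0.0089 at 20 to 50 TPM, 0.0031 at 100 to 500 TPM and -0.0022 over 500 TPM. It moved 30 of 52 list and GO medians relative to all transcripts by more than the spread between pairs. These were the lists of cytosolic ribosomal proteins (-0.049), translation elongation and initiation factors (0.025), aminoacyl-tRNA synthetases (0.071), glycolysis and fermentation (-0.083), TCA cycle (-0.040), respiratory chain and ATP synthase (-0.066), mitochondrial protein import and chaperones (-0.0035), amino acid biosynthesis (-0.072), nucleotide synthesis (-0.058), cytosolic chaperones (0.0026), proteasome subunits (0.042), histones (-0.12), protein kinases (0.060), DNA replication, repair and recombination (0.058), small GTPase regulators (0.17), cell wall GPI and PIR proteins (0.029), secretory translocation and ER folding (0.015), vacuolar ATPase (-0.059), redox and thioredoxin enzymes (-0.078) and cell type and marker genes (0.080), and the GO groups of cell wall (0.055), ribosome (0.0057), translation (-0.015), protein kinase activity (0.054), helicase activity (0.024), DNA repair (0.045), mRNA processing or splicing (0.011), amino acid biosynthesis (0.0090), lipid metabolism (-0.0063) and glycolysis (-0.032). Read depth was not used here.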
